A study of Mus musculus with 60 samples.

Results

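The Hox cluster genes were followed in RNA from 3 tissues of wild-type and Mstn-null C57BL/6J mice. Members were the genes whose probe sets on the 2 Affymetrix chips (MOE430A and MOE430B) carried 1 gene symbol, of the form Hoxa, Hoxb, Hoxc or Hoxd followed by a number. This gave 33 genes, represented by 48 of the 45037 probe sets analysed, out of 18193 genes with a symbol of their own. The tissues were the whole embryo at 13.5 d.p.c. (days post coitum), the hindquarters of the embryo at 17.5 d.p.c. and the pectoralis muscle at d35 (postnatal day 35). At each time point 5 wild-type and 5 Mstn-null pools were measured, each pool being RNA of 3 animals of 1 genotype, so that 15 animals stood behind each group of 5 pools. The Mstn-null animals lack functional myostatin, a secreted inhibitor of muscle growth,. Mstn itself was not analysed here. The pools are the replicates, and variation between the animals of a pool is averaged out of every error given.

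Hox genes encode homeodomain transcription factors that tell cells of the trunk and limbs where along the body axis they lie. They stand in 4 clusters, A to D, and a gene's paralog group is its number within a cluster: low numbers are expressed from the hindbrain downwards, while high numbers are confined to the posterior trunk, the tail and the distal parts of the limbs. Gdf11, the closest relative of myostatin, shares its receptors and is known for shifting the posterior limits of Hox expression in the embryo.

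The 9 Hoxa genes lie on chromosome 6, the 9 Hoxb genes on chromosome 11, the 7 Hoxc genes on chromosome 15 and the 8 Hoxd genes on chromosome 2. By paralog group, 7 genes belonged to groups 1 to 3, 12 to groups 4 to 8 and 14 to groups 9 to 13. Of the 33 genes, 22 had 1 probe set and 11 had up to 4. Other genes of the clusters, such as Hoxa6, Hoxb8 and Hoxd4, were not analysed here. For the tissue comparisons the probe set that was brightest at 13.5 d.p.c. was followed through all tissues. For the genotype comparisons within a time point the brightest at that time point was used. The same probe set was the brightest at every time point for 27 genes, and it changed for Hoxa3, Hoxb3, Hoxb4, Hoxa5, Hoxd8 and Hoxa9.

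The deposited values were log2 intensities, and no 2 arrays held identical values. Array medians differed between time points (8.05 to 8.09, 7.78 to 7.86 and 6.88 to 6.94 on chip A of the embryo, hindquarters and pectoralis), so tissues were compared on ranks only: each probe set was given its percentile rank within its own array and chip, 0 being the dimmest and 100 the brightest. A percentile rank depends on the affinity of the probes as well as on the transcript, so the ranks of different genes give no order of transcript abundance. Tissue and age changed together, and RNA of the pectoralis was isolated by another protocol, so these cannot be told apart. In RNA from whole tissues, fewer cells expressing a gene and less RNA per cell cannot be told apart either. As a level that genes without a function in these tissues reach, the 95th percentile of 67 odorant, vomeronasal and taste receptor probe sets on chip A, and of 13 on chip B, was taken in each pool. On chip A this reference rose from ranks of 42.2 to 48.6 in the embryo to 49.3 to 57.7 in the pectoralis, and on chip B from between 63.4 and 70.9 to between 85.6 and 88.5.

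By the rule for rank calls given further on, 4 of 6 adult muscle markers ranked higher in the hindquarters than in the embryo (median 26.7 points), and none lower. In the pectoralis against the hindquarters 2 ranked higher (median 0.76 points), and none lower. Over all probe sets 8.69% and 19.2% ranked higher. The mean log2 level of the 6 markers was 8.40 to 8.73 in the embryo, 11.26 to 11.70 in the hindquarters and 14.11 to 14.29 in the pectoralis. These levels are not on 1 scale between time points. The hindquarters pools also held other tissues in varying amounts: the mean log2 level of 10 liver genes lay between 11.37 and 13.03 in 9 pools and was 8.02 in Mstn-null pool 5. The chip B array of wild-type pool 1 of 17.5 d.p.c. correlated with the other arrays of its group at a mean r of 0.949, the lowest of the 60 arrays. Leaving out these 2 pools together with wild-type pool 2 and Mstn-null pool 4, whose Hox ranks are described further on, gave 1 gene higher and 9 lower in the hindquarters against the embryo, and 7 higher and 9 lower in the pectoralis against the hindquarters.

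The embryo, with all body levels in it, had Hox genes above the receptor reference from Hoxb2 at the anterior to Hoxd13 at the posterior end. At 13.5 d.p.c. 14 of the 33 genes were above the receptor reference in all 10 pools: Hoxb2, Hoxb3, Hoxc4, Hoxa5, Hoxc6, Hoxa7, Hoxc8, Hoxd8, Hoxa9, Hoxc9, Hoxd9, Hoxc10, Hoxa11 and Hoxd13. In the hindquarters there were 9, and in the pectoralis 8. With the embryo reference of chip A at ranks of 42.2 to 48.6, over 50% of all chip A probe sets were above it too. In the hindquarters and pectoralis it lay at 46.8 to 53.1 and 49.3 to 57.7, so about as many chip A probe sets were above as below. The counts therefore do not set the Hox genes apart from other genes. The 8 genes of the pectoralis were Hoxa5, Hoxc5, Hoxc6, Hoxa7, Hoxd8, Hoxa9, Hoxc9 and Hoxd9, all from paralog groups 5 to 9. Hoxc4 was above the reference in 8 pectoralis pools and Hoxb2 in 4, and the other 23 genes, including all 10 genes of groups 10 to 13, were above it in none. In the hindquarters Hoxa11 and Hoxc10 of groups 10 to 13 were above it in all 10 pools, Hoxd13 in 9, Hoxa10 in 6 and Hoxd10 in 3. These counts depend strongly on the reference: against its brightest receptor instead, 3, 1 and 1 genes were above in every pool of the embryo, hindquarters and pectoralis.

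**Figure D1:**
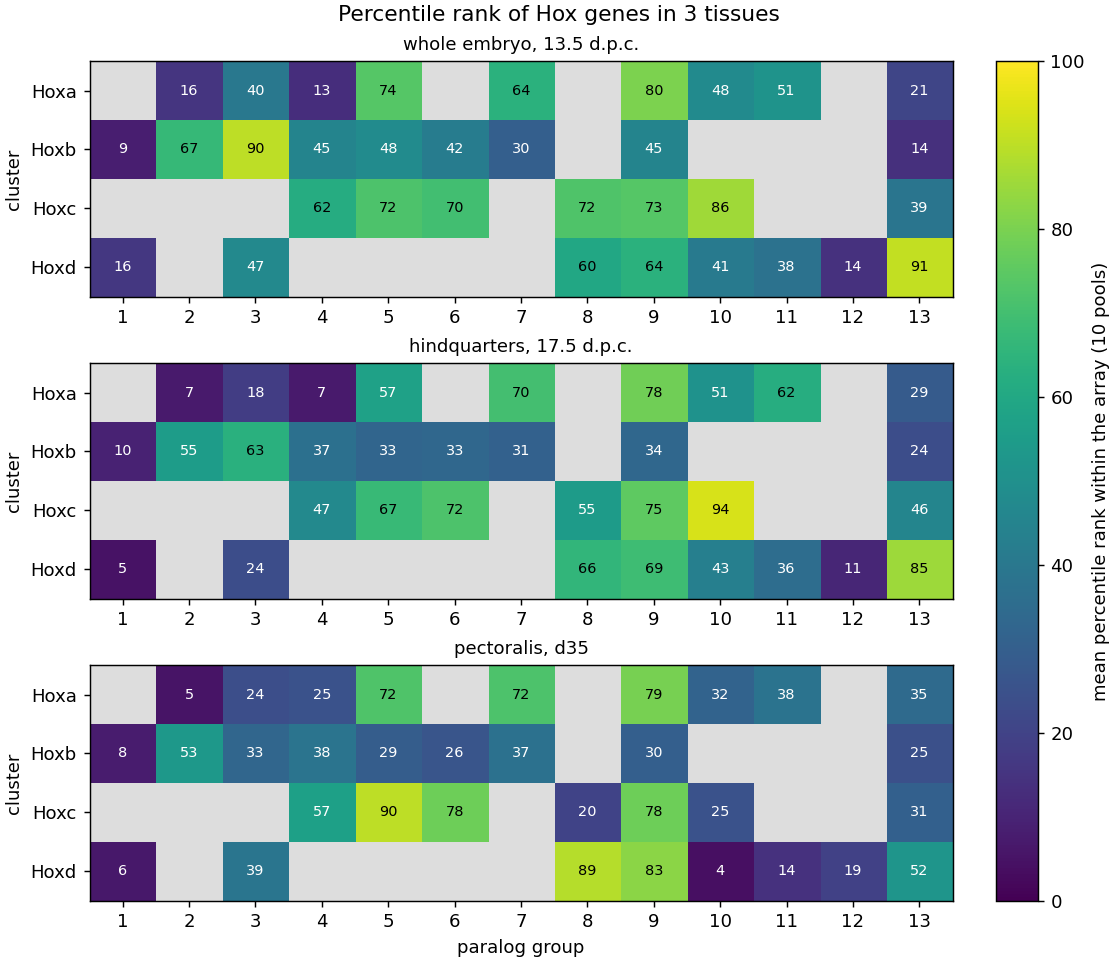
Mean percentile rank within the array, over 10 pools, of each Hox gene by cluster (rows) and paralog group (columns) in the embryo, hindquarters and pectoralis, with grey where no gene was measured. Hoxc10 went from 85.9 and 94.1 in the embryo and hindquarters to 25.4 in the pectoralis, while Hoxd8 rose from 60.1 to 89.0.

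By paralog group, the median rank of groups 1 to 3 was 40.1 in the embryo, 18.2 in the hindquarters and 24.2 in the pectoralis. For groups 4 to 8 the medians were 61.1, 50.9 and 47.7. For groups 9 to 13 they were 46.6, 48.3 and 31.2. By cluster, no Hoxb gene had a mean rank over 53.2 in the pectoralis, whereas in the embryo Hoxb3 reached 90.2. The Hoxc genes had a median rank of 72.2 in the embryo and 56.9 in the pectoralis.

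Hindquarters and embryo were compared to describe the Hox ranks of a posterior part beside those of a whole body. The 2 also differ in age (17.5 and 13.5 d.p.c.) and in the tissues they hold, so body position cannot be told apart from these. By the followed probe sets, anterior genes ranked lower in the hindquarters: 10 genes were lower and 1 was higher. The rule was a Benjamini-Hochberg adjusted p under 0.05 in limma and a difference of at least 10 percentile points. Over all probe sets 9.6% were lower and 8.69% higher by the same rule. The lower genes were 5 of the 7 of groups 1 to 3 (Hoxd1, Hoxb2, Hoxa3, Hoxb3 and Hoxd3), 4 of the 12 of groups 4 to 8 (Hoxc4, Hoxa5, Hoxb5 and Hoxc8) and Hoxb9. Of these, Hoxd1, Hoxa3 and Hoxd3 were above the receptor reference in no pool of either tissue, so their falls concern dim probe sets. The probe sets of Hoxa3 also disagreed in direction, and the second probe set of Hoxa5 differed by only -0.96 points. The higher gene was Hoxa11, which patterns the forearm and lower leg. Other probe sets passed the rule in genes that the followed probe set did not call. The chip B probe set of Hoxd8, its brightest at 17.5 d.p.c., was higher by 15.3 points, against 5.67 for the followed one. A probe set of Hoxc5 was lower by 35.4 points, while the followed one differed by -4.86 and the third by -4.47. Across the 33 genes, which are not independent replicates, the rank difference rose with the paralog number (Pearson r = 0.63, Spearman rho = 0.65). The median difference was -11.5 points for groups 1 to 3, -6.93 for groups 4 to 8 and 2.45 for groups 9 to 13, against -0.04 over all probe sets.

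Hoxb3, a gene of the hindbrain and neck, had ranks from 87.3 through a median of 90.3 to 92.0 in the embryo pools. In the hindquarters its ranks ran from 49.6 through 63.6 to 73.5, a difference of -26.9 points (SE 2.21, adjusted p = 2.51e-11). All hindquarters pools were below all embryo pools, and its second probe set also had a lower mean rank, 66.6 in the embryo and 54.1 in the hindquarters.

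Hoxd3 had ranks of 42.9 to 51.6 in the embryo (median 47.5) and of 19.3 to 28.0 in the hindquarters (median 24.5), a difference of -23.3 points (SE 1.11, adjusted p = 2.35e-16). Hoxc8, which acts in the thorax, had ranks of 69.3 to 75.4 in the embryo (median 72.6) and of 41.6 to 66.2 in the hindquarters (median 55.1), a difference of -17.6 points (SE 2.15, adjusted p = 4.69e-08). Neither gene's ranks overlapped between the tissues.

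Hoxa3, which is needed for the thymus and parathyroid, was the exception among its probe sets. The followed probe set ranked 37.9 to 43.0 in the embryo (median 39.9) and 14.9 to 21.2 in the hindquarters (median 18.4), a difference of -21.8 points (SE 0.71, adjusted p = 5.33e-20). The probe set of Hoxa3 that was brightest at 17.5 d.p.c. moved the other way, from a mean rank of 28.3 to 37.3, and all of its 4 probe sets were at or under a mean rank of 60.4 in every tissue. The direction for Hoxa3 is therefore unsettled.

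At the posterior end, Hoxa11 had ranks of 49.8 to 53.8 in the embryo (median 51.6) and of 58.5 to 67.7 in the hindquarters (median 62.2), a difference of 10.8 points (SE 0.94, adjusted p = 7.38e-11). The ranges did not overlap, but the difference was 9.92 points when ranks were taken over both chips together, which is under the minimum. Hoxb13, a gene of the tail end of the body, ranked 12.9 to 15.34 in the embryo (median 13.7) and 19.5 to 30.4 in the hindquarters (median 22.6). Its difference of 9.80 points (SE 1.11, adjusted p = 1.23e-08) fell short of 10 points, and in both tissues it was below the receptor reference in every pool.

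Hoxc10, a gene of the lumbar region and hindlimb, ranked 81.5 to 87.6 in the embryo (median 86.3) and 86.9 to 95.5 in the hindquarters (median 94.8). The difference was 8.25 points (SE 0.87, adjusted p = 3.38e-09), and the only hindquarters pool to overlap the embryo was wild-type pool 1, the pool with the chip B array that stood apart. Hoxa13, a gene of the digits and the genital tubercle, ranked 17.8 to 23.3 in the embryo (median 21.2) and 23.4 to 46.9 in the hindquarters (median 26.8), a difference of 7.77 points (SE 1.85, adjusted p = 5.58e-04). Its high value of 46.9 came from Mstn-null pool 4, and the other 9 hindquarters pools lay between 23.4 and 32.0.

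**Figure D2:**
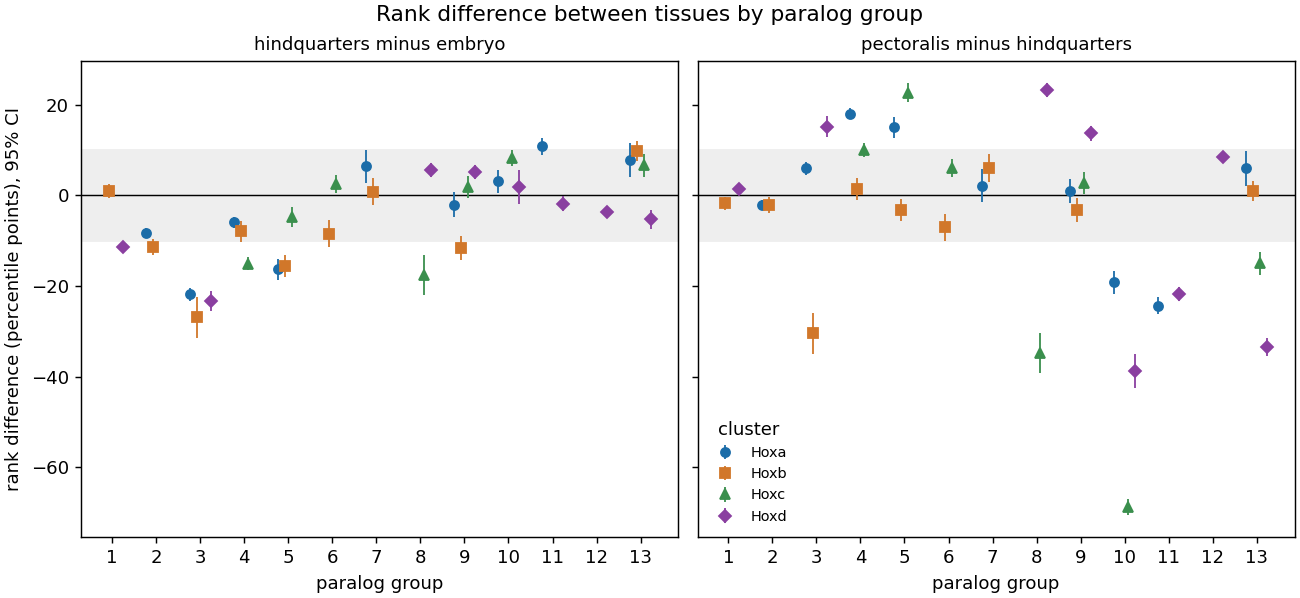
Difference in percentile rank between tissues for each Hox gene against its paralog group, with 95% confidence intervals from limma over 10 and 10 pools, coloured by cluster; the grey band marks differences under 10 points. Groups 1 to 3 lie mostly below 0 in hindquarters minus embryo, while the largest falls in pectoralis minus hindquarters are in group 10, with Hoxc10 at -68.8 and Hoxd10 at -38.8.

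The pectoralis is a muscle of the chest and forelimb, so the comparison sets an anterior tissue against the posterior hindquarters, which also differ from it in age and make-up. Here the posterior end of the clusters ranked lower. In all, 9 genes were lower and 6 higher in the pectoralis, where 17.6% and 19.2% of all probe sets were lower and higher. Of the 14 genes of groups 9 to 13, 7 were lower (Hoxa10, Hoxc10, Hoxd10, Hoxa11, Hoxd11, Hoxc13 and Hoxd13) and 1 was higher (Hoxd9). Among the lower genes, Hoxd11 and Hoxc13 were above the receptor reference in no pool of either tissue. Hoxd10 was above it in only 3 hindquarters pools, so part of these falls concerns dim probe sets. Of the 19 genes of groups 1 to 8, 2 were lower (Hoxb3 and Hoxc8) and 5 were higher (Hoxd3, Hoxa4, Hoxa5, Hoxc5 and Hoxd8). All 5 genes of groups 10 and 11 were lower by the followed probe set, although a dimmer probe set of Hoxa10 differed by 9.54 points the other way, and none of the 4 genes of group 9 was. Across the 33 genes the rank difference had a Pearson r of -0.34 and a Spearman rho of -0.31 with the paralog number.

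Hoxc10 had the largest difference. Its ranks of 86.9 to 95.5 in the hindquarters stood against 22.2 to 29.0 in the pectoralis (median 25.3), a difference of -68.8 points (SE 0.87, adjusted p = 2.15e-29). The pectoralis ranks were far under the receptor reference of this chip, 85.6 to 88.5.

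Hoxd10, which acts in the hindlimb and its motor neurons, ranked 32.8 to 52.4 in the hindquarters (median 42.7) and 2.91 to 4.92 in the pectoralis (median 4.35), a difference of -38.8 points (SE 1.81, adjusted p = 5.37e-17). Hoxd13, the main gene of the digits, ranked 79.5 to 89.6 in the hindquarters (median 85.9) and 49.3 to 56.2 in the pectoralis (median 51.4), a difference of -33.4 points (SE 0.97, adjusted p = 1.38e-21). In neither gene did the pools of the tissues overlap, but the second, dimmer probe set of Hoxd13 had almost the same mean rank in both, 30.5 and 30.8.

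Hoxa11 fell from ranks of 58.5 to 67.7 in the hindquarters to 35.7 to 41.0 in the pectoralis (median 37.7), by 24.4 points (SE 0.94, adjusted p = 6.56e-19). Hoxc8, although a thoracic gene, fell to ranks of 14.8 to 27.6 (median 19.6), by 34.8 points (SE 2.15, adjusted p = 2.43e-14). Hoxb3 fell to ranks of 31.2 to 34.6 (median 32.7), by 30.4 points (SE 2.21, adjusted p = 8.08e-13). Its second probe set, the brighter one in both tissues, differed by only -3.43 points, from 54.1 to 50.6, which is under the minimum of 10.

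Among the genes that rose, Hoxd8 and Hoxc5 moved furthest. Hoxd8, a gene of the trunk, ranked 62.9 to 70.3 in the hindquarters (median 65.4) and 85.9 to 91.0 in the pectoralis (median 89.2), a difference of 23.2 points (SE 0.75, adjusted p = 1.20e-20). Its other probe set, on chip B, also had higher mean ranks in the pectoralis, 97.7 against 90.6, a rise of 7.11 points. Hoxc5, a gene of the neck and shoulder level, ranked 64.2 to 72.0 in the hindquarters (median 67.1) and 88.7 to 92.4 in the pectoralis (median 89.99), a difference of 22.7 points (SE 1.06, adjusted p = 4.85e-17). Hoxc5 was above the receptor reference of its chip in 0 hindquarters pools and all 10 pectoralis pools, and that reference rose from between 68.5 and 79.9 to between 85.6 and 88.5.

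Hoxd9 ranked 66.9 to 74.5 in the hindquarters (median 68.3) and 79.5 to 86.2 in the pectoralis (median 83.0), a difference of 13.6 points (SE 0.78, adjusted p = 4.14e-15). Hoxa5, which is needed in the lung and the shoulder region, ranked 53.4 to 63.1 in the hindquarters (median 56.3) and 67.1 to 76.6 in the pectoralis (median 72.5), a difference of 15.0 points (SE 1.11, adjusted p = 1.18e-12). The pectoralis ranks of Hoxa5 overlapped those of the embryo, which were 72.7 to 76.0. The second probe set of Hoxa5, brighter in the hindquarters and pectoralis, had mean ranks of 91.9, 90.9 and 97.4 in the embryo, hindquarters and pectoralis, and its differences of -0.96 points (hindquarters minus embryo) and 6.46 (pectoralis minus hindquarters) were under the minimum.

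The rises of Hoxa4 and Hoxd3 concerned dim probe sets. Hoxa4 ranked 4.82 to 8.94 in the hindquarters (median 7.23) and 22.03 to 30.1 in the pectoralis (median 24.5), a difference of 18.0 points (SE 0.57, adjusted p = 9.11e-21), while its second probe set differed by 2.81 points. Hoxd3 went from 19.3 to 28.0 in the hindquarters to between 34.9 and 42.0 in the pectoralis (median 39.1), a difference of 15.1 points (SE 1.11, adjusted p = 9.71e-13). Both were under the receptor reference in every pool of both tissues, and that reference also rose from hindquarters to pectoralis.

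Of the other group 9 genes, Hoxa9 and Hoxc9 had high ranks in all tissues, while Hoxb9 had mean ranks of 45.1, 33.5 and 30.4 in the embryo, hindquarters and pectoralis. Hoxa9 had a mean rank of 80.4 in the embryo, 78.3 in the hindquarters and 79.3 in the pectoralis, and its difference between the latter tissues was 0.96 points (95% CI -1.75 to 3.68). Hoxc9 had mean ranks of 73.5, 75.3 and 78.0, and its difference was 2.65 points (95% CI 0.21 to 5.09). The pools of the 3 tissues overlapped in Hoxa9 and Hoxc9, so no order of the tissues can be given for them. With Hoxb1, Hoxb4, Hoxc6, Hoxa7, Hoxb7 and Hoxd12 they were the 8 genes called in no tissue comparison by the followed probe set. The largest differences among these were 8.56 points for Hoxc6 and 8.52 for Hoxa7, both pectoralis minus embryo. A dimmer probe set of Hoxc6 moved further, by 21.7 points (pectoralis minus embryo) and 12.6 (pectoralis minus hindquarters). Both differences passed the rule for a call, so the probe sets of Hoxc6 disagree in size.

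**Figure D3:**
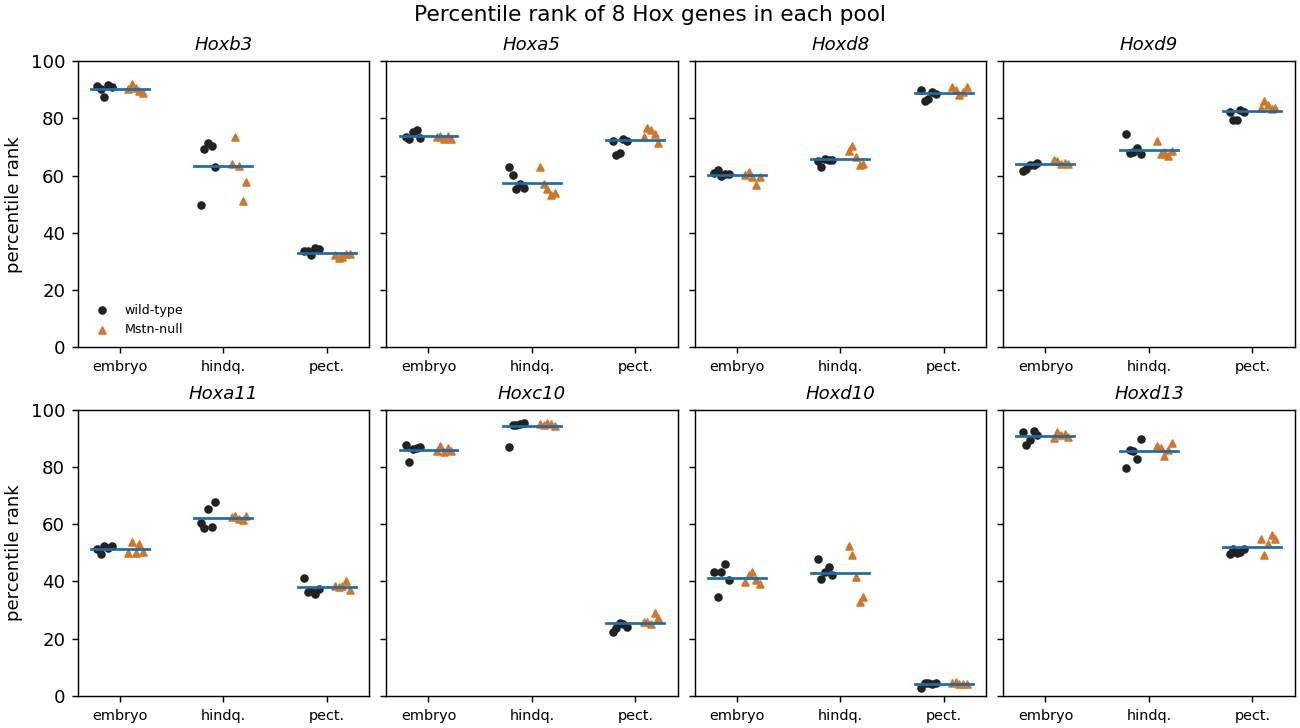
Percentile rank within the array (vertical axis) of 8 Hox genes in each pool of embryo, hindquarters and pectoralis; circles are wild-type pools, triangles Mstn-null pools and the line is the mean of 10 pools. Both genotypes overlap in every tissue, while Hoxc10, Hoxd10, Hoxd13 and Hoxa11 drop in the pectoralis and Hoxd8 and Hoxd9 rise.

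Within the Hoxd cluster, neighbouring genes thus moved in opposite directions: Hoxd8 and Hoxd9 were called higher in the pectoralis than in the hindquarters, Hoxd10, Hoxd11 and Hoxd13 lower. Hoxd12, which lies between Hoxd11 and Hoxd13, differed by 8.50 points upwards, under the minimum, so the posterior genes did not all fall. The promoters of 4 of the called genes are shown because the direction of the calls changed between Hoxd9 and Hoxd10. The sequences are RefSeq promoters of build GRCm38.p6, 250 bases before to 50 after the start of the gene, written 5′ to 3′ in the order in which the genes lie along the chromosome. Capitals mark matches to 3 motifs searched on both strands: TATAAA (the core promoter box), TTTATG (bound by Cdx factors, activators of Hox genes) and TGATTNAT (bound by Hox proteins together with Pbx).
Hoxd13 (chr2:74667975-74668274, strand +): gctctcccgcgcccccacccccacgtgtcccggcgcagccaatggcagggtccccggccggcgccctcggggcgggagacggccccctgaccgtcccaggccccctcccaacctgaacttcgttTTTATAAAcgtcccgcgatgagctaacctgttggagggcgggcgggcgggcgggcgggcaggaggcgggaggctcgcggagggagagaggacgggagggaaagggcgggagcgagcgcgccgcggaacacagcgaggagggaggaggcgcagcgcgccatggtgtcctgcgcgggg
Hoxd10 (chr2:74691641-74691940, strand +): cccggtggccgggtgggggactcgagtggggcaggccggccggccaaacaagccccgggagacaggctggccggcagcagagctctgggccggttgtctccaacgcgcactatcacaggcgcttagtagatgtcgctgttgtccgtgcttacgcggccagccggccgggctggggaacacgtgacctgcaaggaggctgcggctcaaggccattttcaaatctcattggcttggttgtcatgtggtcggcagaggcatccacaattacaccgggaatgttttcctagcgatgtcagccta
Hoxd9 (chr2:74697513-74697812, strand +): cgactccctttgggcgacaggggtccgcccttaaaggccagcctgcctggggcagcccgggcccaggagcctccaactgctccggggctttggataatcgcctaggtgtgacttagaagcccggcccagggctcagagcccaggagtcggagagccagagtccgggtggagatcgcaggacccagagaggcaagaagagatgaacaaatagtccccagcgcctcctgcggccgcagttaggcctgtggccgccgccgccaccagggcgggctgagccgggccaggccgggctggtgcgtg
Hoxd8 (chr2:74704365-74704664, strand +): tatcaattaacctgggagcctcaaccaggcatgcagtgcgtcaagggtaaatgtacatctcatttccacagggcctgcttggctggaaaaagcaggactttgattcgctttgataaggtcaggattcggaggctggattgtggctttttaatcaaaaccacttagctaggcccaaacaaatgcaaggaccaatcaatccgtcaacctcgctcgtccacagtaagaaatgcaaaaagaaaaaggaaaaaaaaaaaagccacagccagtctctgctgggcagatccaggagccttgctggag

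In these 4 windows the single run in capitals is in Hoxd13, where TATAAA matched on both strands with overlap. TATAAA was present in 13.6% of all 32851 promoters of the table, TTTATG in 11.9% and TGATTNAT in 3.22%. Of the 33 genes, 19 had a promoter in the table, with 21 promoters in all; TATAAA was in 2 of them (Hoxd13 and Hoxa10), TTTATG in 3 (Hoxd3, Hoxa7 and Hoxd11) and TGATTNAT in 2 (Hoxa2 and Hoxd11). The promoters of Hoxd13, Hoxd10, Hoxd9 and Hoxd8 held 37, 22, 20 and 6 CpG pairs, against a median of 15 over the Hox promoters and 7 over all promoters. These matches describe the letters of the windows only, and no factor's binding was measured.

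Against the embryo, 14 genes ranked lower in the pectoralis and 6 higher, where 20.1% and 22.3% of all probe sets did. This comparison shares its pools with the other tissue comparisons, so its values are not independent of theirs. The lower genes were spread over the axis: 4 of the 7 of groups 1 to 3, 3 of the 12 of groups 4 to 8 and 7 of the 14 of groups 9 to 13. The largest falls were those of Hoxc10 (-60.5 points, SE 0.87), Hoxb3 (-57.3, SE 2.21), Hoxc8 (-52.4, SE 2.15) and Hoxd13 (-38.8, SE 0.97), and the tissues did not overlap in any of them. The second probe sets moved less, by -16.0 points in Hoxb3 and -7.45 in Hoxd13. Hoxa3 was counted as lower at -15.9 points, but its other probe sets differed by 11.1, 6.93 and -3.55 points. Its direction is therefore unsettled here too. The second probe set of Hoxa10, counted as lower, differed by 1.71 points, and that of Hoxa4, counted as higher, by 1.10. The largest rises were those of Hoxd8 (28.9 points, SE 0.75), Hoxd9 (18.8, SE 0.78), Hoxc5 (17.8, SE 1.06) and Hoxa13 (13.7, SE 1.85). The other probe sets of Hoxc5 differed by -1.89 and 7.96 points, under the minimum. Hoxa13 had pectoralis ranks of 31.2 to 39.0 (median 34.5), under the receptor reference in every pool. Over the 33 genes the rank difference had a Pearson r of -0.02 and a Spearman rho of 0.00 with the paralog number.

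The hindquarters pools had a wider spread of ranks than the other tissues in Hoxa7, Hoxb7 and Hoxd10. Hoxa7 ranked 82.1 in Mstn-null pool 4 and 78.9 in wild-type pool 2, 75.9 in Mstn-null pool 5 and between 64.5 and 69.6 in the other 7. Hoxb7, a gene of the kidney ducts among other sites, ranked 40.2 and 38.2 in the same pools 4 and 2, and 27.1 to 33.1 in the other 8. Hoxd10 was lowest in Mstn-null pools 4 and 5, at 32.8 and 34.7. In the pools that were high in Hoxa7, the mean log2 level of the 8 measured kidney and gut markers was 8.08 in Mstn-null pool 4, 8.89 in wild-type pool 2 and 7.78 in Mstn-null pool 5, within or under the 8.31 to 9.19 of the other 7 pools. The part of tissue composition in these ranks was not tested.

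Wild-type and Mstn-null pools were compared within each time point to ask whether loss of myostatin goes with changed Hox expression. No Hox gene was called at any time point (limma, Storey q under 0.05). Over all probe sets 0.54% were called in the embryo, 0% in the hindquarters and 4.58% in the pectoralis. The pools of the genotypes were separated without overlap for 0, 0 and 1 of the 33 genes, against 2.4%, 0.535% and 5.25% of all probe sets. Without adjustment, p was under 0.05 for 0, 1 and 5 of the 33 genes, while 11.3%, 2.43% and 17.9% of all probe sets were under it. The differences, wild-type minus Mstn-null on the log2 scale, ran from -0.12 to 0.15 in the embryo, from -0.19 to 0.19 in the hindquarters and from -0.21 to 0.14 in the pectoralis. The 95% confidence intervals stayed within a 1.5-fold difference in either direction for all 33 genes in the embryo and in the pectoralis, and for 32 in the hindquarters. The exception was Hoxa13, whose interval in the hindquarters reached from -0.60 to 0.21.

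At 13.5 d.p.c. Hoxb9, of the thoracic ribs, had the smallest p. Its wild-type pools read 8.11, 7.90, 7.97, 7.95 and 7.61 and its Mstn-null pools 7.65, 7.85, 7.76, 7.84 and 7.68, a difference of 0.15 (SE 0.07, q = 0.35). The groups overlapped through the lowest wild-type pool.

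Hoxb1 read 5.40, 5.48, 5.32, 5.34 and 5.29 in wild-type against 5.57, 5.55, 5.35, 5.599 and 5.35 in Mstn-null pools, a difference of -0.12 (SE 0.06, q = 0.36). Hoxb6 read 7.75, 7.555, 7.77, 7.96 and 7.66 against 7.62, 7.73, 7.57, 7.65 and 7.52, a difference of 0.12 (SE 0.06, q = 0.38). Both genes overlapped between the genotypes. The 3′ to 5′ difference of the actin control probes, a sign of RNA length, was 0.13 to 0.22 in wild-type and 0.25 to 0.33 in Mstn-null embryos on the log2 scale. With it as a covariate no Hox gene was called either, the difference of Hoxb9 being 0.02. Because its values did not overlap between the genotypes, this fit cannot tell genotype from RNA length. Only 1 of all 45037 probe sets was called in it, against 243 without the covariate, so no conclusion is drawn from it.

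At 17.5 d.p.c. Hoxd8 was the gene with p under 0.05. Its wild-type pools read 8.28, 8.69, 8.75, 8.58 and 8.51 and its Mstn-null pools 8.78, 8.83, 8.82, 8.67 and 8.67, a difference of -0.19 (SE 0.09, q = 0.99995). The lowest reading came from wild-type pool 1, whose chip B array stood apart, and this probe set lies on chip B. Without that pool the difference stayed negative, as it did without any other pool (-0.24 to -0.12).

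Hoxb5 read 7.39, 6.99, 7.07, 7.11 and 7.02 in wild-type against 6.99, 7.14, 7.01, 6.86 and 6.62 in Mstn-null pools, a difference of 0.19 (SE 0.10, q = 0.99995). Hoxa10 read 7.82, 7.47, 7.99, 7.84 and 7.84 against 8.08, 8.07, 8.03, 7.75 and 7.92, a difference of -0.18 (SE 0.10, q = 0.99995). In all 3 genes the genotypes overlapped. The summed intensity of the 10 liver genes was 38130 to 104617 in wild-type and 5685 to 70550 in Mstn-null pools, and with the liver level as a covariate no Hox gene was called.

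At d35 Hoxa4 came nearest to the threshold. It read 5.55, 5.61, 5.65, 5.70 and 5.53 in wild-type and 5.72, 5.84, 5.83, 5.69 and 5.97 in Mstn-null pools, a difference of -0.21 (SE 0.06, q = 0.0538). Only wild-type pool 4 and Mstn-null pool 4 overlapped, and leaving out either brought q to 0.048 and 0.046. A single fit of all 30 pools gave q = 0.023. The probe set was below the receptor reference in every pool.

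Hoxc10, already low in the pectoralis, read 4.83, 4.92, 5.02, 5.02 and 4.93 in wild-type against 5.08, 5.07, 5.01, 5.25 and 5.16 in Mstn-null pools, a difference of -0.17 (SE 0.06, q = 0.086). Hoxd9, one of the genes that were high in this muscle, read 8.68, 8.50, 8.46, 8.77 and 8.65 against 8.72, 9.02, 8.84, 8.75 and 8.79, a difference of -0.21 (SE 0.07, q = 0.087). Both overlapped between the genotypes. Hoxc4 was the gene whose pools did not overlap. It read 7.38, 7.21, 7.24, 7.32 and 7.25 in wild-type and 7.17, 7.08, 7.19, 7.16 and 7.09 in Mstn-null pools, a difference of 0.14 (SE 0.05, q = 0.090).

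Of the 14 genes of groups 9 to 13, 13 were lower in wild-type pectoralis, with a median difference of -0.07. Over all probe sets the median was -0.01 and 44.0% were above 0. The genes share their pools, so the count does not stand for 13 independent observations. The 3′ to 5′ difference of the actin control probes was 0.17, 0.58, 0.38, 0.21 and 0.23 in the wild-type and 0.15, 0.24, 0.21, 0.12 and 0.11 in the Mstn-null pools. With it as a covariate, 11 of the 14 genes were lower in wild-type (median -0.05) and no Hox gene was called, the q of Hoxa4 being 0.18. In that fit 632 of all 45037 probe sets were called, against 2062 without the covariate, so the loss of calls was not particular to Hox genes. The median over all probe sets was -0.003 in it. Without wild-type pool 2, 12 of the 14 were lower (median -0.06). The summed intensity of the 6 adult muscle markers was 108204 to 116645 in the wild-type and 116781 to 121243 in the Mstn-null pectoralis, where none of the 6 was called, and its part in these differences was not tested.

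Among the 48 probe sets, 1 was called. It was a dimmer probe set of Hoxc5 at d35, which read 6.99, 7.07, 6.93, 6.81 and 7.0009 in wild-type and 6.64, 6.47, 6.83, 6.70 and 6.39 in Mstn-null pools, a 1.28-fold higher level in wild-type (log2 difference 0.35, SE 0.08, q = 0.020). The lowest wild-type pool lay just under the highest Mstn-null pool. The brightest probe set of Hoxc5 differed by 0.05 and the remaining one by 0.06, so the probe sets of this gene disagree.

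**Figure D4:**
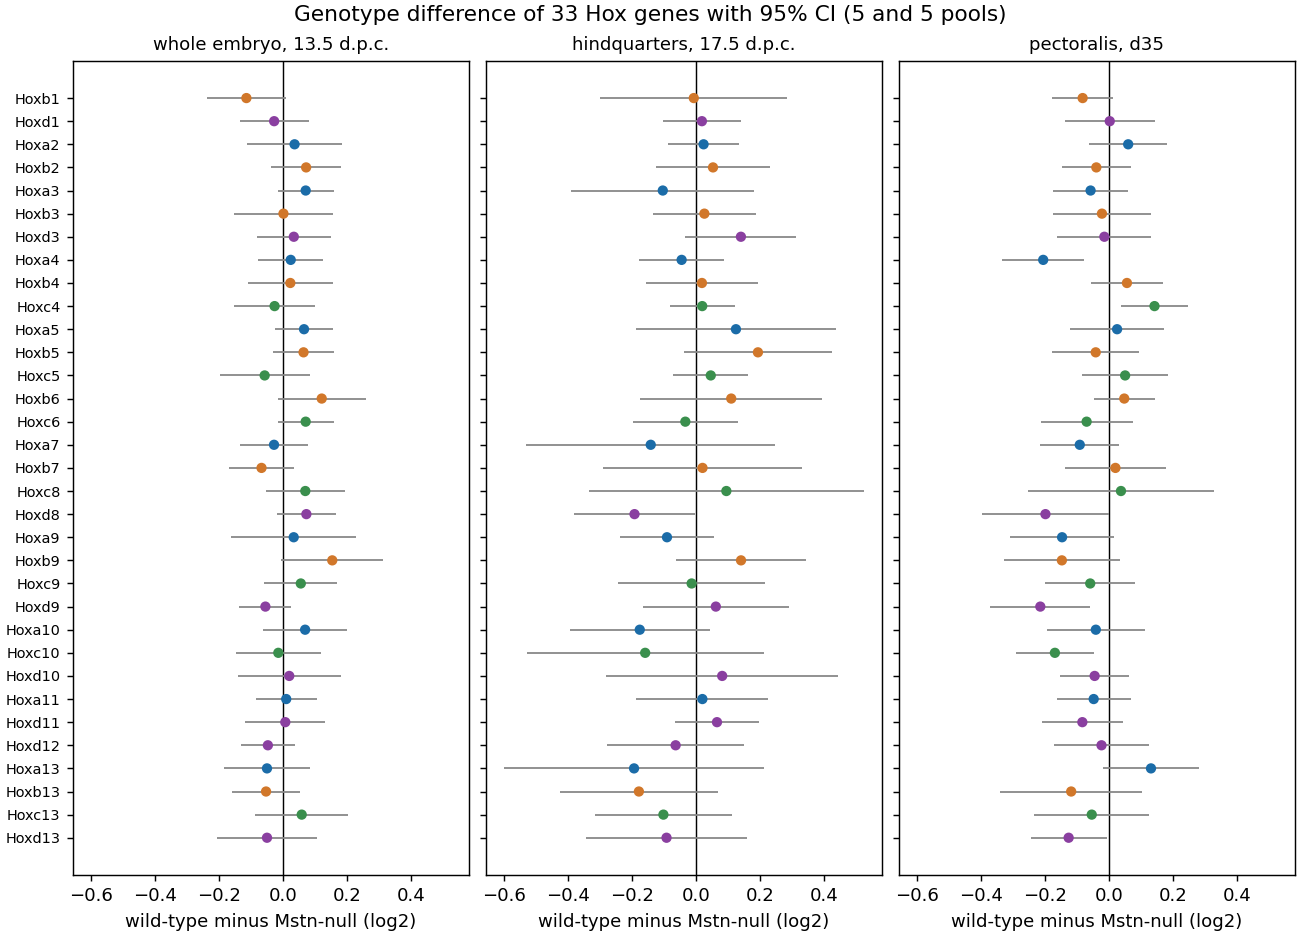
Difference in log2 level between 5 wild-type and 5 Mstn-null pools for each Hox gene, ordered from paralog group 1 to 13, with 95% confidence intervals from limma at each time point; colours mark the clusters as in the plot of rank differences. All differences lie between -0.21 and 0.19, and intervals are widest in the hindquarters.

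The difference between genotypes was also compared between time points. No Hox gene passed an adjusted p of 0.05 in any of the 3 pairs of time points, where 0%, 0.524% and 0.986% of all probe sets did (embryo against hindquarters, hindquarters against pectoralis and embryo against pectoralis). Without adjustment 1, 4 and 5 genes had p under 0.05. The share of all probe sets under this limit is not given here, so no result is drawn from these counts.

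Genes that act with or on the Hox clusters were read in the same fits. Of 8 cofactors of the Pbx, Meis and Pknox families, which bind DNA together with Hox proteins, none was called between genotypes. The smallest p was that of Meis2 in the embryo, higher in wild-type by 0.25 (SE 0.06, q = 0.078). From embryo to pectoralis 5 of the 8 ranked lower, where 20.1% of all probe sets did, with Pbx3 at mean ranks of 97.7, 79.0 and 28.1, Meis2 at 87.3, 67.1 and 35.9, and Meis1 at 92.5, 78.8 and 62.2 in the embryo, hindquarters and pectoralis. Pknox2 had 87.3, 82.8 and 96.0.

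Of 29 regulators of Hox transcription, 2 were called at d35, where 4.58% of all probe sets were, and none before. Both were higher in wild-type pectoralis: Phc2, a Polycomb protein, by 0.31 (SE 0.07, q = 0.024) and Gmnn (geminin) by 0.27 (SE 0.05, q = 0.012). Of 19 genes of Gdf11 and myostatin signalling, 4 were called at d35, beside the same 4.58% of all probe sets, and none before. The receptor genes Acvr2a and Acvr2b were lower in wild-type, by -0.32 (SE 0.07, q = 0.014) and -0.21 (SE 0.05, q = 0.038), while Skil and Smad7, which restrain the pathway, were higher by 0.35 (SE 0.07, q = 0.011) and 0.16 (SE 0.04, q = 0.043). Gdf11 itself differed by 0.00 at d35.

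Among 22 genes of limb position, 2 were called, both at d35: Prrx1, of limb mesenchyme, was higher in wild-type by 0.36 (SE 0.10, q = 0.041), and Tbx15 was lower by -0.41 (SE 0.07, q = 0.0041). The hindlimb factors Pitx1 and Tbx4 had mean ranks of 57.3 and 72.6 in the hindquarters and of 43.7 and 45.1 in the pectoralis. Tbx5, the forelimb factor, had 59.8 and 55.8. Of 17 genes that neighbour the Hox clusters, Mtx2 next to the Hoxd cluster was called at d35, higher in wild-type by 0.46 (SE 0.11, q = 0.023). Over all probe sets 4.58% were called at d35, so the counts of these 2 lists are not read as results about the lists.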

How the data were processed

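RNA pools of wild-type and Mstn-null C57BL/6J mice were measured on 60 arrays, a chip A and a chip B array for each of 30 pools. The deposited values are log2 intensities that the authors made by RMA with the R package affy, whose version is not given in the sources used here; time points were not brought to 1 scale. Replicates were pools, so p-values measure the spread between pools of 3 animals. Genes were named through the platform annotation: of 45037 probe sets, after leaving out 64 control probe sets per chip and the chip B copy of 100 shared ones, 34945 had 1 symbol, 932 several and 9160 none. RMA hides depth and has no detection call, so the number of arrays limits the precision.

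Genotypes were compared with limma 3.58.1 in R 4.3.3 (lmFit and eBayes, no filter) within each time point, with Storey q under 0.05 over all probe sets (lambda 0.05 to 0.95 in steps of 0.05). Percentile ranks within array and chip were fitted with limma over all 30 pools and 6 group means, and a gene was called at a Benjamini-Hochberg adjusted p under 0.05 and a difference of at least 10 points. Each gene was read by its brightest probe set, at 13.5 d.p.c. for comparisons between time points and at the time point itself for those within one. Per-pool values are given for the 3 genes with the smallest p at each time point and the 4 with the largest rank difference in each direction, and for genes of groups 9 to 13 high in hindquarters or pectoralis; Hoxa5, Hoxa7, Hoxb7, Hoxc4 and the second probe set of Hoxc5 were added after their values were seen. Of each gene list, called genes are named, and the ranks named were chosen after their values were seen. The scripts were tested on simulated data with known differences. The members and gene lists were chosen with earlier results of these data known. Promoters came from the RefSeq table of build GRCm38.p6. Other lists read as tissue markers (fetal muscle, neuron, cartilage, fibroblast, epidermis and blood) had calls for 2 fetal muscle genes at d35 (Myh8 and Chrna1, lower in wild-type by -0.44 and -0.35) and 1 neuron gene at 13.5 d.p.c. (Elavl4, higher by 0.30). At these time points 4.58% and 0.54% of all probe sets were called.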

Additional observations from a re-analysis of the deposited data

Results flagged for a closer look

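Each gene's pools were searched for a pool far from the other 4 of its group, in 198 groups of 5 pools, of which chance would mark about 1 in 20. There were 8 such values, all log2 levels. The largest were in wild-type pool 1 of 17.5 d.p.c., the pool with the chip B array that stood apart: Hoxc10 read 8.25 where the other wild-type pools read 9.15 to 9.25, and Hoxa5 read 9.38 where they read 8.55 to 8.70. In wild-type pool 2 of 17.5 d.p.c., Hoxb1 read 5.93 against 5.49 to 5.61. In Mstn-null pool 3 of 17.5 d.p.c., Hoxa9 read 9.26 against 9.44 to 9.51. At 13.5 d.p.c., Hoxc10 read 8.28 in wild-type pool 2 against 8.56 to 8.64, and Hoxc9 read 9.28 in wild-type pool 4 against 9.21 to 9.23. At d35, Hoxb3 read 7.14 in wild-type pool 4 against 6.83 to 6.90, and Hoxb13 read 6.05 in Mstn-null pool 3 against 5.59 to 5.71.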

How the results depend on the processing

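Between genotypes, 0 Hox genes were called in the embryo and in the hindquarters under every alternative tried. Few probe sets of any kind were called there. In the hindquarters the alternatives called 0 over all probe sets, apart from 14 of 45037 in the fit of all 30 pools. In the embryo they called from 0, in the fit of all 30 pools, to 479, without wild-type pool 5. These counts of 0 therefore do not set the Hox genes apart from other genes. At d35 the count was 1 when any probe set of a gene counted (Hoxc5) and 1 in a fit of all 30 pools (Hoxa4), and 0 to 1 when each pool was left out. The differences of genotype between time points gave 0 throughout. Genes higher in the hindquarters than the embryo numbered 2 with ranks over both chips, 2 with the probe set brightest at 17.5 d.p.c., 3 with the brightest at each time point, 2 in Mstn-null pools alone and 0 at a minimum of 20 points, and 1 to 2 when each pool was left out, the second being Hoxb13 without wild-type pool 1 or Mstn-null pool 2 or 3 of 17.5 d.p.c. At 20 points, 3 genes were lower in the hindquarters, 2 higher in the pectoralis than the hindquarters, and 1 higher and 6 lower in the pectoralis than the embryo. Hoxa3 turned to 9.06 points, hindquarters minus embryo, with the probe set brightest at 17.5 d.p.c., and Hoxd8 to -1.60, pectoralis minus hindquarters, with the brightest at each time point, which sets different probe sets against each other. Above the brightest receptor were 3, 1 and 1 genes at the 3 time points, and above the 90th percentile of the receptors 14 at 17.5 d.p.c. With the median over all probe sets of a gene, the median rank of groups 1 to 3 was 34.2, 23.6 and 31.8 in the embryo, hindquarters and pectoralis. That of groups 4 to 8 was 62.9 and 42.1 in the embryo and hindquarters, and that of groups 9 to 13 was 43.2 and 44.3. Causes of these changes were not tested beyond the settings themselves. Leaving out single pools kept the other counts at 10 lower (hindquarters against embryo), 6 to 7 higher and 9 lower (pectoralis against hindquarters), and 6 higher and 14 to 15 lower (pectoralis against embryo). Pools of the same replicate number correlated between genotypes at -0.20 to 0.48, with both signs at each time point. At 17.5 d.p.c. numbers 1, 3 and 5 correlated at 0.30, 0.39 and 0.48, and each was best matched by the pool of its own number. Numbers 2 and 4 correlated at -0.20 and -0.07. Whether the numbers pair the pools is therefore not settled. With the replicate number as a block, 0 Hox genes were called between genotypes at each time point, and the tissue counts were 1, 10, 6, 9, 6 and 14, as without it. The alternatives without the 4 hindquarters pools that stood apart and with the actin difference as a covariate at d35 were chosen after seeing the data. Array data give no depth, and dim probe sets below the receptors limit what ranks can show.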
